A study of Mus musculus with 24 samples.

Results

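The 44 genes described here act in meiosis, in the piRNA pathway and in the making of germ cells. They were taken by gene symbol from a table of 19953 genes, and all 44 listed symbols were found in it. PolyA RNA was sequenced from 24 libraries of mouse embryonic stem cells (mESC), 3 in each of 8 groups, which combine 4 genotypes with 2 days. WT and Mll1-KO cells were untreated. Mll1-KO cells had been made by CRISPR deletion in a line in which Mll2 can be removed by an inducible Cre, so they still carried Mll2. Mll2-KO cells and double-KO cells, which lack both genes, were obtained with 800 nM 4-OHT for 48 hours, the drug that switches the Cre on. On day 0 all 4 genotypes were undifferentiated stem cells on gelatin with 15% serum and LIF. Day 4 cells of the same 4 genotypes had been differentiated with 1 µM retinoic acid in 10% serum for 4 days. Loss of Mll2 and exposure to 4-OHT therefore cannot be told apart in any comparison. The labels give neither the number of Mll1-KO clones nor whether the 3 replicates were separate cultures, so each p-value measures only the spread between these libraries, which may be technical. In bulk RNA, fewer cells that express a gene and less RNA per cell cannot be told apart either.

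MLL1 (gene Kmt2a) and MLL2 (gene Kmt2b) are methyltransferases that place methyl groups on lysine 4 of histone H3, a mark of active promoters, and MLL2 binds CpG-rich promoters whose DNA is unmethylated. In meiosis, homologous chromosomes are built on a protein axis that contains cohesin, are cut and repaired by recombination, and are zipped together by the synaptonemal complex. The piRNA pathway uses PIWI proteins loaded with small RNAs, with Tudor proteins as scaffolds, to silence transposons in germ cells. Many genes of both processes have CpG-rich promoters, and in stem cells they are held at low levels by DNA methylation and by a variant Polycomb complex that contains MGA with MAX, which bind the E-box letters CACGTG, and E2F6, which binds letters such as TCCCGC.

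Promoters are shown for the 6 genes with a RefSeq window that were at least 2-fold lower in each of the 4 comparisons of Mll2 loss described below, and for Smc1b, which was lower without MLL1 on day 0 instead. Each window holds 300 bases, from 250 before to 50 after the RefSeq start (build GRCm38.p6), written 5′ to 3′ on the strand of the gene. Capitals mark CACGTG, or TCCCGC on either strand. Sycp1 lies at chr3:102936051-102936350 (minus strand), Sycp2 at chr2:178407609-178407908 (minus), Mael at chr1:166238695-166238994 (minus), Slc25a31 at chr3:40708621-40708920 (plus), Tdrd5 at chr1:156303299-156303598 (minus), Sohlh2 at chr3:55181794-55182093 (plus) and Smc1b at chr15:85131908-85132207 (minus).
Sycp1: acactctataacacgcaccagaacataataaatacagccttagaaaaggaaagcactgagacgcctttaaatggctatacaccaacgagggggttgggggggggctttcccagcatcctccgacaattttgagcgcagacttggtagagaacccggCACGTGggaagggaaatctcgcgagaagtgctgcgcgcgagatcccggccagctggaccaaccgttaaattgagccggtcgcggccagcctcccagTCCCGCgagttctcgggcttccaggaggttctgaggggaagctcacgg
Sycp2: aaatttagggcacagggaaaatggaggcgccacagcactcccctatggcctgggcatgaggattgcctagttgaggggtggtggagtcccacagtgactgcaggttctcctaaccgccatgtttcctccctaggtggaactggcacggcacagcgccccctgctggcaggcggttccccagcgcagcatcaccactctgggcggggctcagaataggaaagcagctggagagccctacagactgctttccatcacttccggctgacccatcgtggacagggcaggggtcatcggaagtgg
Mael: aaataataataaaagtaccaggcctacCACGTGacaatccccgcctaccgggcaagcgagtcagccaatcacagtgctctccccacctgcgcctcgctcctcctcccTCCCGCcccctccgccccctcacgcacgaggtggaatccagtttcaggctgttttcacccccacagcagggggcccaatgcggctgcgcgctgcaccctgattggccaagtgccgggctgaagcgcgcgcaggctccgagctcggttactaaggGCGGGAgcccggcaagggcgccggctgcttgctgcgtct
Slc25a31: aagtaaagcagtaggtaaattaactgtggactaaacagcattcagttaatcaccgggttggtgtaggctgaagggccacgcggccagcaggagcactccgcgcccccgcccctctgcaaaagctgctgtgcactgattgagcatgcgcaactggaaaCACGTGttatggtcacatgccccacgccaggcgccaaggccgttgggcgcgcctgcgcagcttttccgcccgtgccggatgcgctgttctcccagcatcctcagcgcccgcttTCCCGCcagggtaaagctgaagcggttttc
Tdrd5: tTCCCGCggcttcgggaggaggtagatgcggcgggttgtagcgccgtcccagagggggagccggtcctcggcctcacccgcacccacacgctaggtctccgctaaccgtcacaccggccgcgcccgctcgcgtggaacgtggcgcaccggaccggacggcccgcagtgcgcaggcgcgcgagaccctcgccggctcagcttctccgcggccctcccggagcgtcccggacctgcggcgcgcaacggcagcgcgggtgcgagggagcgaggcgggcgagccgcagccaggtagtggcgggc
Sohlh2: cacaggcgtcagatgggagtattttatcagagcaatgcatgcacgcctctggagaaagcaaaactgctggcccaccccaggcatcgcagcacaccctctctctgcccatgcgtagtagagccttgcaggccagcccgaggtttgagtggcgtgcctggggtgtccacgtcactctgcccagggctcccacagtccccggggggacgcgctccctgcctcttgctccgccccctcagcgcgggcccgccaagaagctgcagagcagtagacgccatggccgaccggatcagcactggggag
Smc1b: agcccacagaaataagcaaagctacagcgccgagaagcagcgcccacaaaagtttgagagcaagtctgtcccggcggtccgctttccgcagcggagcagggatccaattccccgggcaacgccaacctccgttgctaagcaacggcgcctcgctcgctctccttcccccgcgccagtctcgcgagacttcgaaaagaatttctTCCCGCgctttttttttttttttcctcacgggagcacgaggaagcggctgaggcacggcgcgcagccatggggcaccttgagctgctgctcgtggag
The Sycp1 and Slc25a31 windows each hold 1 E-box and 1 TCCCGC, the Mael window holds 1 E-box and 2 TCCCGC, Tdrd5 and Smc1b hold 1 TCCCGC and no E-box, and Sycp2 and Sohlh2 hold neither. The observed-to-expected CpG ratio was 1.11 for Tdrd5, 1.08 for Smc1b, 0.874 for Sycp1, 0.826 for Slc25a31, 0.780 for Mael, 0.545 for Sohlh2 and 0.363 for Sycp2. Of the 44 genes, 39 had a RefSeq promoter, with 49 windows in all. The median CpG ratio of these 49 windows was 0.713, against 0.384 over all 32851 RefSeq windows of the same length, and the Sycp2 window lay below both. CACGTG was in 17 of the 49 windows (34.7%) and in 7.15% of all windows. TCCCGC, counted on both strands, was in 20 of the 49 (40.8%) and in 19.98% of all windows. These are matches of letters, not sites shown to be bound.

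Recovered read totals ran from 17.7 to 22.8 M per library on day 0 and from 10.7 to 17.1 M on day 4. Kmt2a, the deleted gene of the Mll1-KO, had 1089 ± 37.8 normalized counts in WT (mean ± SD, n = 3 libraries here and below) and 29.7 ± 11.8 in Mll1-KO on day 0, and 2141 ± 106 against 55.9 ± 13.7 on day 4. Double-KO libraries had 29.7 ± 8.36 on day 0 and 104 ± 24.0 on day 4. Kmt2b stayed between 2099 and 3701 in every library, so its count does not show the deletion of Mll2. Summed counts of 12 pluripotency markers were between 138678 and 157562 in all day 0 libraries, as the mESC label has it. Endoderm RNA differed between the day 0 groups, however. Summed counts of 10 endoderm markers were 5547 to 6205 in WT and 4569 to 5070 in Mll2-KO, but 650 to 683 in Mll1-KO and 737 to 809 in double-KO. The endoderm sums differed on day 4 as well, with means of 24311 in WT, 11612 in Mll1-KO, 31131 in Mll2-KO and 16999 in double-KO. Their part in the differences between genotypes below was not tested. Of 11 markers of postmeiotic sperm cells 7 were in the table, with a summed count of at most 16.6 in any library, and all 7 at 0 in the 3 double-KO libraries of day 4. The 9 oocyte markers summed to at most 159 in any library, with between 2 and 6 of them at 0 in each group.

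Most of the genes were measurable but low. Levels can be compared between genes only per length, and in WT on day 0 the highest normalized counts per kilobase of exon were 703 for Sycp3, a core protein of the chromosome axis and synaptonemal complex, 510 for Syce2, which joins the central element of that complex, and 291 for Ddx4, the helicase of germ granules. Spo11, the enzyme that makes meiotic DNA breaks, was at 0 in all 3 WT libraries of day 0 and below 3 in each of the 24 libraries. On day 0, 37 of the 44 genes passed the filter of at least 10 normalized counts in at least 3 libraries, and on day 4 35 did. Tex12, Sohlh1, Spo11, Asz1 and Figla passed on neither day, and their highest count in any library was 6.75. Tex101 and Tdrd9 passed on day 4 only, and Syce3, Nanos3, Mei1 and Msh4 on day 0 only. Sycp2 and Slc25a31 passed on day 4 only through the 6 WT and Mll1-KO libraries, the groups in which they are high. Their day 4 tests are therefore not independent of the filter. Their falls on that day were also called with no filter. With the filter raised to 50, both left the list of genes lower in all 4 comparisons of Mll2 loss given below. Sycp3, Syce2, Tex12, Tdrkh and Dnd1 overlap a gene on the opposite strand (Chpt1, Gcdh, Il18, Oaz3 and Wdr55), and the strand setting of the counting is not given in the sources used here, so their counts are less certain.

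Without Mll2, more of the genes were called lower than higher on both days. Changes are given as the log2 difference on the scale log2 (normalized count + 1) ± its standard error, with limma's Benjamini-Hochberg adjusted p, and a gene is called at an adjusted p below 0.05. Of the 37 genes tested on day 0, 23 were lower and 2 higher in Mll2-KO than in WT, 12 of the 23 by at least 2-fold, and the median change was -0.64. Over all genes tested, 24.3% were called lower, 22.8% higher and 5.27% called and at least 2-fold lower, around a median of -0.00486. In cells already without MLL1, the double-KO had 20 genes lower and 1 higher than Mll1-KO, with 13 at least 2-fold lower and a median of -0.61, where 22.0% of all genes were called lower, 18.9% higher and 5.61% called and at least 2-fold lower. On day 4, Mll2-KO had 19 lower and 4 higher than WT of 35 tested, 12 at least 2-fold lower (20.3% of all genes were lower, 25.4% higher and 7.27% at least 2-fold lower). Double-KO had 17 lower and 11 higher than Mll1-KO on that day, 9 at least 2-fold lower (23.7%, 31.1% and 9.52% of all genes in the same order). Across these 4 comparisons, which share no library, 14 of the 33 genes tested in all 4 were lower every time, against 613 of 13214 genes (4.64%). The genes were chosen with earlier results of these data known, so such shares describe the list and are no test of it. The 14 were Sycp1, Sycp2, Syce1, Tex11, Tex15, Sohlh2, Dazl, Ddx4, Mael, Meioc, Tdrd5, Mov10l1, Dnd1 and Slc25a31. At least 2-fold every time were 8 of them, Sycp1, Sycp2, Tex11, Tex15, Sohlh2, Mael, Tdrd5 and Slc25a31, against 163 of the 13214 genes (1.23%). Both counts hold Sycp2 and Slc25a31, which passed the day 4 filter only through WT and Mll1-KO libraries.

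Markers of the rare 2-cell-like state moved in the same comparisons. Their summed count over 7 markers in the table was 1738 to 2073 in WT, 829 to 1125 in Mll1-KO, 254 to 467 in Mll2-KO and 147 to 197 in double-KO on day 0. On day 4 the ranges were 2436 to 3733, 1339 to 1457, 187 to 259 and 285 to 344 in the same order, and no marker was at 0 in all libraries of any group. Their part in the falls of the meiosis and piRNA genes was not tested. Summed pluripotency markers on day 4 were 5984 to 7463 in WT and 9187 to 10520 in Mll2-KO, and 3308 to 3749 in Mll1-KO against 5709 to 5819 in double-KO. The part of the pluripotency markers in these falls was not tested either.

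**Figure D1:**
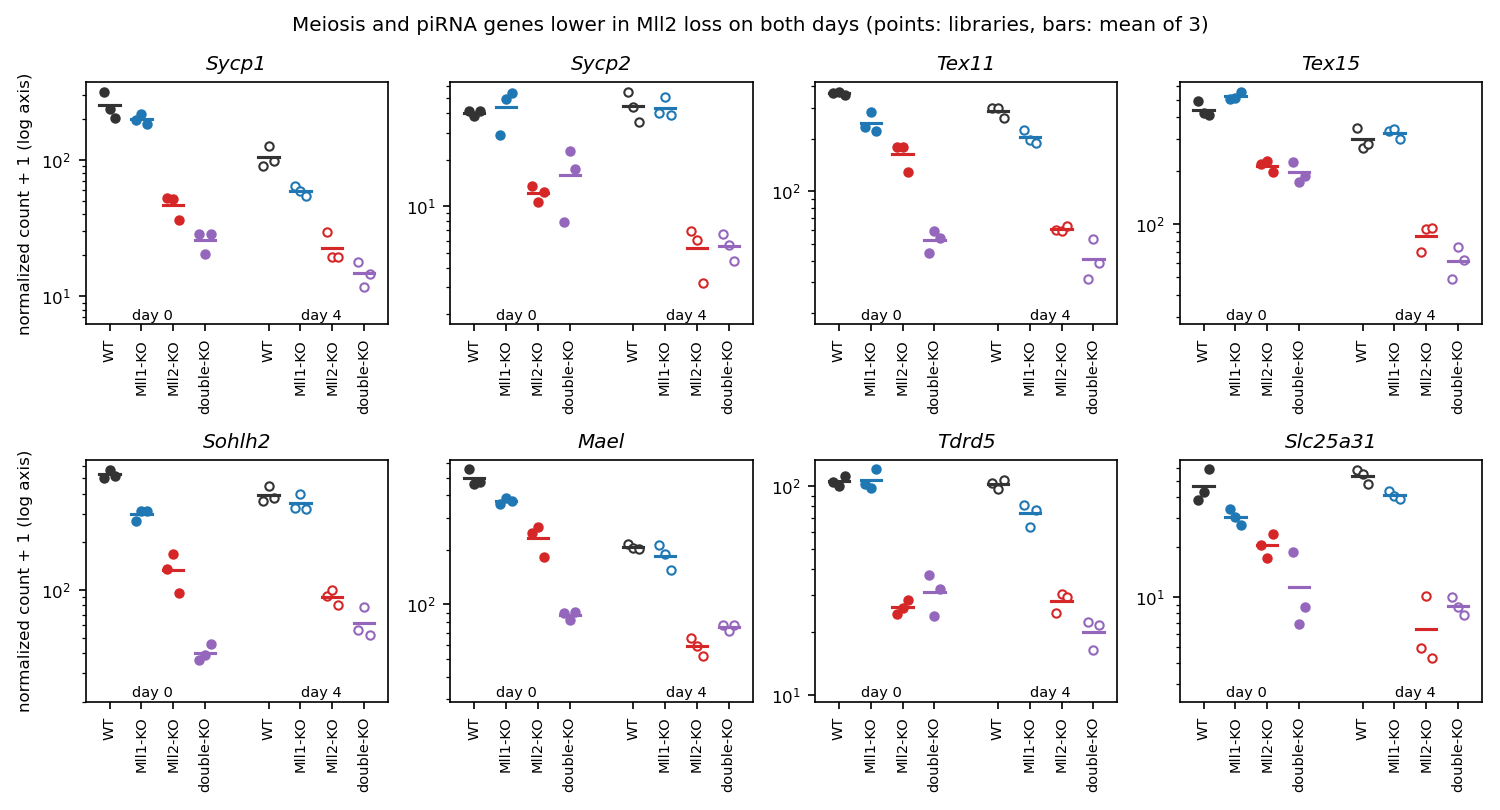
Normalized count plus 1 (log axis) of the 8 genes at least 2-fold lower in all 4 comparisons of Mll2 loss, in each library of the 4 genotypes on day 0 (filled) and day 4 (open). Points are libraries and bars the mean of 3. In each panel the Mll2-KO and double-KO points lie below the WT and Mll1-KO points of the same day.

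In the synaptonemal complex, the transverse filament gene Sycp1 changed most on day 0. Its 3 WT libraries had 314, 238 and 203 normalized counts, those of Mll1-KO 194, 217 and 183, those of Mll2-KO 51.9, 50.8 and 35.1 and those of double-KO 27.6, 19.4 and 27.5. The libraries with Mll2 and those without did not overlap, and the log2 change was -2.43 ± 0.20, adjusted p = 5.9e-09 in Mll2-KO against WT. Day 4 had 89.4, 125 and 97.8 in WT, 63.3, 58.5 and 53.3 in Mll1-KO, 28.4, 18.3 and 18.5 in Mll2-KO and 16.8, 10.7 and 13.7 in double-KO, with a change of -2.22 ± 0.23, adjusted p = 2.4e-08 in Mll2-KO against WT. Sycp2, which lies along the chromosome axis, was low throughout, and its day 0 libraries had 40.6, 37.2 and 40.4 in WT, 27.8, 48.8 and 53.1 in Mll1-KO, 12.5, 9.67 and 11.4 in Mll2-KO and 6.90, 21.9 and 16.3 in double-KO. On day 4 it was nearly off without Mll2, at 5.88, 5.10 and 2.18 in Mll2-KO and 5.60, 4.60 and 3.42 in double-KO against 53.9, 43.1 and 34.2 in WT and 39.4, 49.7 and 37.9 in Mll1-KO (double-KO minus Mll1-KO -2.98 ± 0.35, adjusted p = 1.2e-07). Between Mll1-KO and WT on day 0, limma called 0 of the 6 synaptonemal complex genes tested, 0 had an unadjusted p below 0.05, and edgeR and DESeq2 also called 0.

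Syce1, a central element gene, fell by less. It had 278, 249.9 and 248 in WT and 124, 137 and 147 in Mll2-KO on day 0 (-0.92 ± 0.12, adjusted p = 4.6e-06), and 219, 283 and 239 in Mll1-KO against 102, 116 and 124 in double-KO (-1.11 ± 0.12, adjusted p = 9.1e-07). On day 4 the values were 189, 172 and 154 in WT, 141, 129 and 174 in Mll1-KO, 67.6, 77.5 and 88.4 in Mll2-KO and 122, 117 and 107 in double-KO. The day 4 difference between double-KO and Mll1-KO, -0.35 ± 0.14, adjusted p = 0.034, was no longer called with no filter, with quantile scaling, without Mll1-KO replicate 3 or without double-KO replicate 2 or 3. On day 0 Sycp3 averaged 888 ± 33.8 in WT and fell to 719 ± 123 in Mll2-KO and 529 ± 23.1 in double-KO, and the first of these calls was lost without Mll2-KO replicate 3. Syce2 went from 1004 ± 30.9 to 791 ± 24.4 in Mll2-KO on day 0 (-0.34) but from 252 ± 13.7 up to 309 ± 10.3 on day 4 (0.29), a rise that was not called with scaling to column totals.

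Among recombination genes, Tex11 and Tex15 were lower without Mll2 in all 4 comparisons, whereas Dmc1, Mlh3 and Msh5 had no call on day 0. Tex11, an X-linked gene needed for crossovers, had 367, 371 and 354 in WT, 234, 283 and 220.1 in Mll1-KO, 179, 179.8 and 127 in Mll2-KO and 43.4, 58.1 and 53.3 in double-KO on day 0. All 4 genotypes were separate, and the double-KO lay -2.81 ± 0.15, adjusted p = 3.8e-12 from WT on the log2 scale. Day 4 gave 301, 299.7 and 262, 225, 196 and 188, 58.8, 58.1 and 62.2 and 30.2, 52.1 and 37.6 in the same order. Tex15, which is needed for loading of repair proteins and for piRNA-guided silencing, had 489, 420.0 and 408 in WT and 216, 227 and 195 in Mll2-KO on day 0 (-1.04 ± 0.10, adjusted p = 1.1e-07), and 507, 511 and 554 in Mll1-KO against 224, 172 and 187 in double-KO. On day 4 its libraries had 344, 269 and 283 in WT, 332, 342 and 300.1 in Mll1-KO, 68.6, 92.7 and 93.8 in Mll2-KO and 48.1, 73.6 and 61.6 in double-KO. The Mll1-KO libraries of Tex15 lay above all WT libraries on day 0 and among them on day 4.

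Dmc1, the meiosis-specific recombinase, had another pattern. On day 0 it was level at 282 ± 36.0 in WT and 279 ± 21.2 in double-KO. On day 4 it had 75.2, 76.2 and 81.3 in WT, 33.8, 38.6 and 32.3 in Mll1-KO, 61.7, 60.1 and 43.6 in Mll2-KO and 14.6, 30.7 and 26.2 in double-KO. Both groups without MLL1 lay below both groups with it, at -1.13 ± 0.23, adjusted p = 0.00043 for Mll1-KO against WT and -1.23 ± 0.23, adjusted p = 0.00015 for double-KO against Mll2-KO. The mismatch repair gene Mlh3, which resolves crossovers, was called on day 4, where it fell from 464 ± 14.1 in WT to 354 ± 7.92 in Mll2-KO (-0.39) and 309 ± 21.2 in double-KO. Prdm9, the histone methyltransferase that places recombination hotspots, was at 10.7, 9.11 and 12.4 in day 0 WT and rose to 23.3, 38.7 and 24.4 in Mll2-KO (1.31 ± 0.34, adjusted p = 0.0035). Msh5 stayed between 12.7 and 41.1 in all 24 libraries with no call in any comparison, and Mei1 and Msh4 were at most 25.3.

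Among piRNA genes, 8 of the 9 tested on day 0 were lower in Mll2-KO than in WT (24.3% of all genes), and 8 were also lower in double-KO than in Mll1-KO (22.0%). Mael, a partner of PIWI-dependent silencing, had 554, 461 and 473 in WT, 356, 386 and 372 in Mll1-KO, 245, 267 and 182 in Mll2-KO and 88.8, 80.8 and 90.3 in double-KO on day 0, with the double-KO -2.09 ± 0.12, adjusted p = 1.7e-10 from Mll1-KO. Mael on day 4 had 215, 204 and 201, 212, 189.8 and 153, 64.7, 58.1 and 51.3 and 76.1, 70.5 and 76.4 in the same order. Tdrd5, a Tudor protein needed for retrotransposon silencing and sperm formation, was at a similar level in both genotypes with Mll2 on day 0, at 103, 99.5 and 111 in WT and 101, 96.6 and 119.7 in Mll1-KO. Without Mll2 it had 23.3, 25.0 and 27.5 in Mll2-KO and 36.5, 22.7 and 30.9 in double-KO (-2.01 ± 0.20, adjusted p = 1.1e-07 and -1.80 ± 0.20, adjusted p = 9.7e-07 against WT and Mll1-KO). Tdrd5 was again lowest without Mll2 on day 4, with 103, 96.2 and 106 in WT, 80.2, 62.9 and 75.7 in Mll1-KO, 23.5, 29.6 and 28.4 in Mll2-KO and 21.3, 15.3 and 20.5 in double-KO. Here, unlike on day 0, all Mll1-KO libraries lay below all WT libraries.

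Ddx4, the germ granule helicase also called Vasa, had 849, 867 and 916 in WT, 561, 658 and 631 in Mll1-KO, 416, 437 and 415 in Mll2-KO and 319.6, 350.2 and 279 in double-KO on day 0. Each genotype lay below the one before it, and Mll2-KO differed from WT by -1.05 ± 0.08, adjusted p = 4.7e-09. On day 4 the order changed: Ddx4 had 776, 693 and 654 in WT, 713, 621 and 652 in Mll1-KO, 245, 228 and 288 in Mll2-KO and 342, 337 and 346 in double-KO, and the double-KO was higher than Mll2-KO by 0.43 ± 0.08, adjusted p = 0.00014. Mov10l1, the RNA helicase that starts piRNA production, was lower without either enzyme on day 0, at 303, 289 and 286 in WT, 158, 119 and 149 in Mll1-KO, 210.3, 193 and 176 in Mll2-KO and 109, 69.0 and 104 in double-KO. On day 4, Mll1-KO had 91.4, 90.5 and 96.8 and WT 104, 123 and 77.8, whose ranges overlap, while Mll2-KO had 52.9, 44.8 and 42.6 and double-KO 62.7, 53.7 and 50.2 (double-KO minus Mll1-KO -0.74 ± 0.17, adjusted p = 0.00085, not called with quantile scaling).

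Other piRNA genes changed direction between days. Tdrkh, a Tudor protein of mitochondria that takes part in piRNA trimming, had 154, 141 and 134 in WT, 65.9, 78.1 and 76.7 in Mll1-KO, 85.0, 103 and 86.2 in Mll2-KO and 40.4, 40.4 and 42.1 in double-KO on day 0. On day 4 it had 119, 115 and 112, 132, 111 and 107, 226, 265 and 239 and 389.5, 408 and 333 in that order. The double-KO thus went from -1.78 ± 0.16, adjusted p = 1e-08 to 1.69 ± 0.11, adjusted p = 2.4e-12 against WT, and the change between days, 3.47 ± 0.18, adjusted p = 2.7e-14, was itself called. Oaz3 overlaps Tdrkh on the other strand. Tdrd1, another Tudor scaffold, had 91.9, 88.1 and 65.2 in WT, 34.9, 24.2 and 32.8 in Mll2-KO and 12.8, 23.6 and 18.9 in double-KO on day 0, and 102, 126 and 97.8, 101, 87.6 and 80.7 and 143, 198 and 149 on day 4. Its double-KO libraries lay below all WT libraries on day 0 and above them on day 4. Piwil2, a PIWI protein of germ cells, fell in double-KO on day 0, from 1174, 1083 and 1079 in WT to 749, 657 and 567 (-0.77). On day 4 Piwil2 rose from 139, 129 and 121 in WT to 207, 189 and 184 in double-KO (0.57). Piwil4 had 113, 119 and 117 in WT, 67.9, 69.3 and 64.1 in Mll1-KO, 87.7, 83.8 and 36.6 in Mll2-KO and 33.5, 38.7 and 28.4 in double-KO on day 0, where Mll2-KO replicate 3 was far below the other two and the call against WT was lost without it. Tdrd7 rose on day 4 from 261, 266 and 267 in WT to 391, 351 and 343 in double-KO (0.45 ± 0.08, adjusted p = 5.2e-05).

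**Figure D2:**
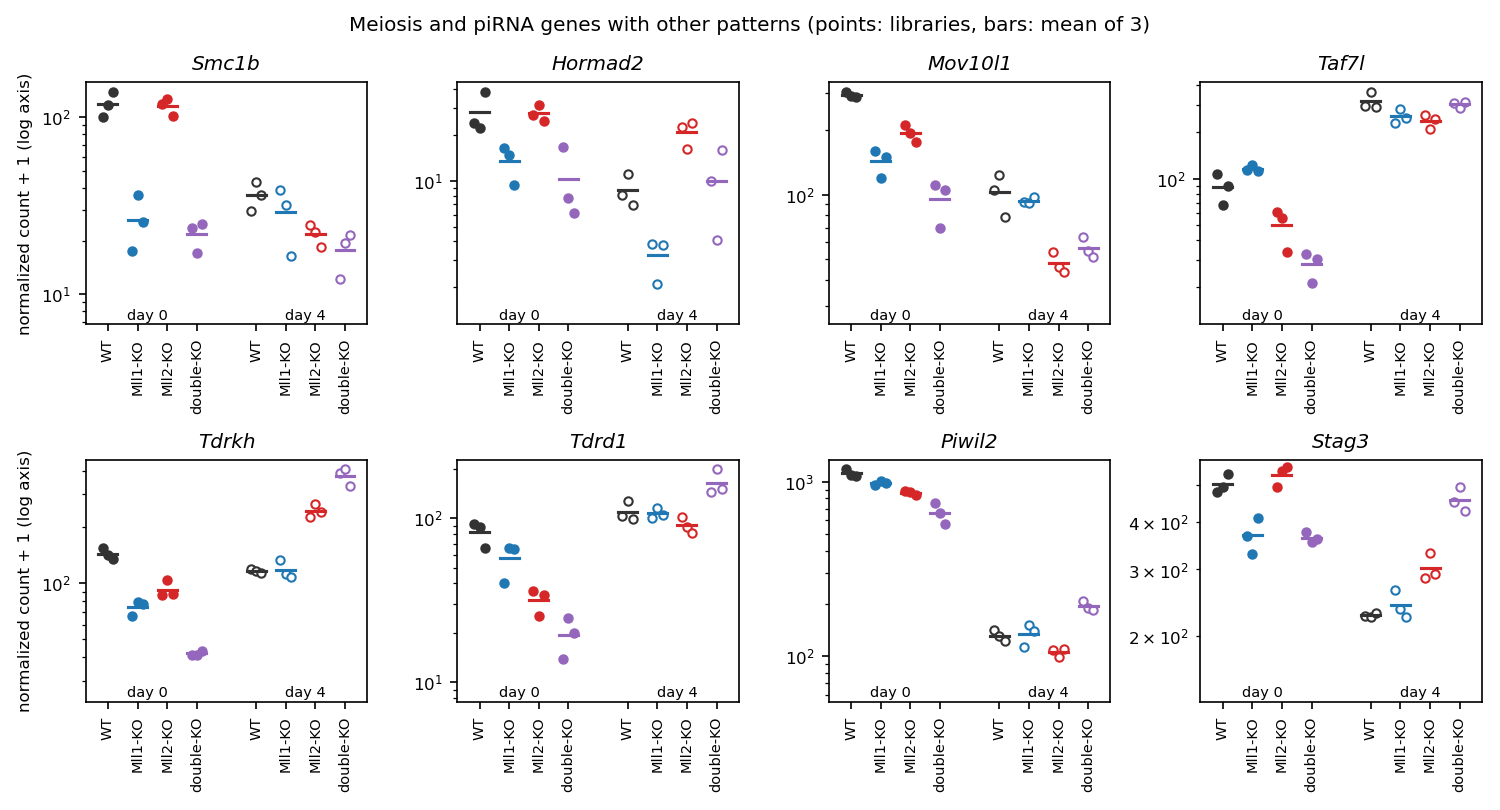
Normalized count plus 1 (log axis) in each library for 8 genes with other patterns, laid out by genotype and day, with points for libraries and bars for the mean of 3. Smc1b is low in both groups without MLL1 on day 0, and Tdrkh is lowest in double-KO on day 0 and highest in double-KO on day 4.

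The germ cell transcription factor Sohlh2 had the largest fall of the 37 genes tested in double-KO against WT on day 0. Its libraries had 501, 567 and 519 in WT, 271, 311 and 313 in Mll1-KO, 135, 168 and 95.3 in Mll2-KO and 35.5, 37.9 and 44.7 in double-KO, 4 groups without overlap, and the double-KO lay -3.72 ± 0.16, adjusted p = 1.3e-13 from WT. On day 4 it had 359, 450.1 and 373 in WT, 323, 397 and 321 in Mll1-KO, 91.1, 98.9 and 79.7 in Mll2-KO and 54.8, 76.7 and 51.3 in double-KO. Sohlh1, its partner in spermatogonia, did not pass the filter. Taf7l, an X-linked subunit of a germ cell TFIID, had 106, 66.8 and 88.5 in WT, 112, 121 and 111 in Mll1-KO, 60.0, 54.8 and 32.8 in Mll2-KO and 31.6, 20.2 and 29.2 in double-KO on day 0 (double-KO minus Mll1-KO -2.07 ± 0.24, adjusted p = 1.2e-06). On day 4 all 4 groups of Taf7l were higher, between 209 and 361. Brdt, the testis bromodomain protein, fell in double-KO on day 0, from 26.0, 34.2 and 24.9 in WT to 14.8, 7.58 and 9.46 (-1.37 ± 0.33, adjusted p = 0.0016).

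Among the RNA-binding regulators, Dazl, which controls translation in germ cells, had 615, 638 and 669 in WT, 423, 441 and 374 in Mll1-KO, 252, 243 and 255 in Mll2-KO and 151, 123 and 149 in double-KO on day 0. Day 4 had 358, 496 and 368, 279.9, 339.9 and 258, 164, 198 and 176 and 153, 190.1 and 193, and here Mll2-KO and double-KO overlapped. Meioc, which maintains meiotic prophase, had 505, 466 and 579 in WT, 294, 372 and 354 in Mll1-KO, 277, 298 and 218 in Mll2-KO and 154, 141 and 136 in double-KO on day 0 (double-KO minus Mll1-KO -1.24 ± 0.12, adjusted p = 1.5e-07), and 447 ± 47.7 in WT against 237 ± 15.0 in Mll2-KO on day 4. Dnd1, which protects primordial germ cells, fell from 255, 262 and 328 in WT to 230.0, 168 and 129 in Mll2-KO on day 0 and from 67.5, 80.6 and 68.7 in Mll1-KO to 32.5, 27.6 and 27.4 in double-KO on day 4 (-1.28 ± 0.20, adjusted p = 7.3e-06). Nanos3, a germ cell survival factor, was low on day 0 at 18.4, 31.9 and 17.1 in WT, 36.0, 40.0 and 29.5 in Mll1-KO, 2.69, 11.3 and 2.29 in Mll2-KO and 30.6, 16.0 and 37.8 in double-KO. Only the Mll2-KO libraries of Nanos3 lay below the other 3 groups, and the difference between double-KO and Mll2-KO was 2.38 ± 0.45, adjusted p = 0.00019. Nanos3 passed the day 0 filter through those 3 groups, where it was high, so its tests are not independent of the filter.

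Slc25a31, the ADP/ATP carrier of male germ cell mitochondria, was low but close to off without Mll2 on day 4. It had 37.5, 41.8 and 57.5 in WT, 32.9, 29.3 and 26.1 in Mll1-KO, 19.7, 16.1 and 22.9 in Mll2-KO and 17.8, 5.89 and 7.74 in double-KO on day 0. The day 0 call of Mll2-KO against WT, -1.17 ± 0.34, adjusted p = 0.0082, was lost without WT replicate 3. On day 4 it had 56.9, 54.1 and 47.1 in WT, 42.2, 39.7 and 37.9 in Mll1-KO, 3.92, 9.17 and 3.27 in Mll2-KO and 8.95, 7.67 and 6.84 in double-KO (-3.16 ± 0.32, adjusted p = 1.6e-08 in Mll2-KO against WT). Tex14, which keeps germ cell bridges open, went the other way on day 0, with 1149, 1096 and 1106 in WT, 771, 749.7 and 890.4 in Mll1-KO, 1242, 1372 and 1531 in Mll2-KO and 661, 759 and 767 in double-KO. By day 4 Tex14 was lower without Mll2, at 87.2, 90.7 and 76.4 in Mll2-KO against 159.5, 183 and 167 in WT (adjusted p = 8.1e-07). Tex101, a surface protein of germ cells, was at most 11.3 in every day 0 library, and on day 4 it had 5.08, 3.01 and 0 in WT, 0, 2.21 and 0 in Mll1-KO, 17.6, 5.10 and 4.36 in Mll2-KO and 15.7, 18.4 and 17.1 in double-KO. Tex101 passed the day 4 filter through these double-KO libraries and 1 of Mll2-KO, so its difference is given without a test.

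**Figure D3:**
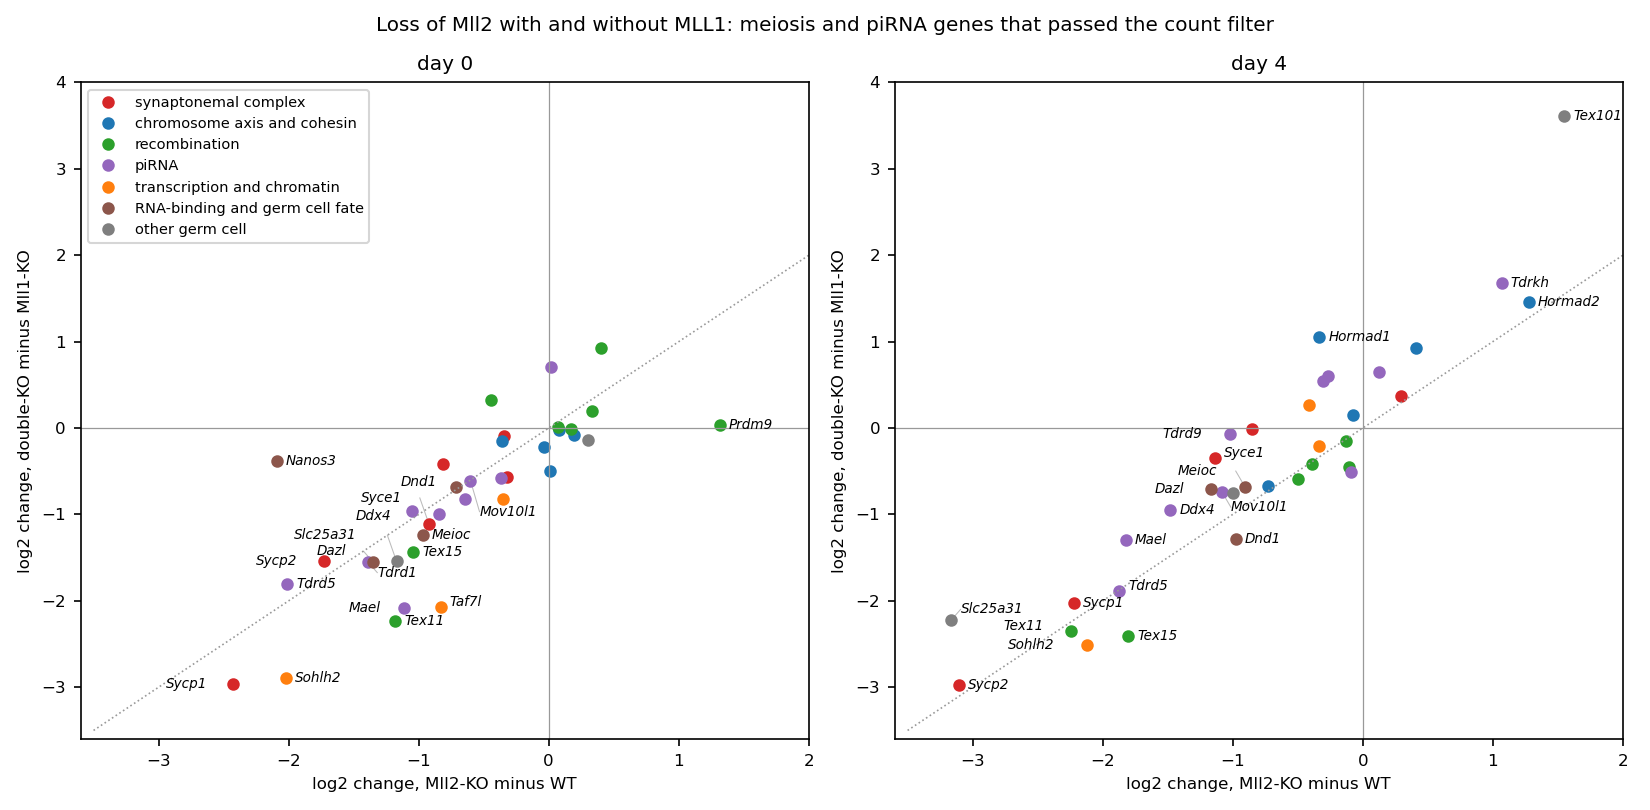
Log2 change with loss of Mll2 in cells that have MLL1 (horizontal, Mll2-KO minus WT) and in cells that lack it (vertical, double-KO minus Mll1-KO), for each gene that passed the filter on day 0 (left) and day 4 (right), coloured by role. The dotted line marks equal change, and Sycp1, Sycp2, Sohlh2, Tex11 and Tdrd5 lie in the lower left of both panels.

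Without MLL1 alone, on day 0, 13 of 37 genes were lower in Mll1-KO than in WT, with 3 at least 2-fold lower and a median of -0.44, where 18.7% of all genes were called lower, 21.3% higher and 3.75% called and at least 2-fold lower. The 3 were Smc1b, Hormad2 and Mov10l1. Smc1b, the meiotic cohesin subunit whose promoter is shown above, had 99.5, 116 and 138 in WT and 117, 127 and 101 in Mll2-KO, but 16.5, 35.1 and 24.5 in Mll1-KO and 22.7, 16.0 and 24.1 in double-KO. Its 2 groups without MLL1 lay below the 2 groups with it, by -2.23 ± 0.25, adjusted p = 5.3e-07 in Mll1-KO against WT and -2.42 ± 0.25, adjusted p = 1.2e-07 in double-KO against Mll2-KO. On day 4 Smc1b was lower in WT than on day 0, at 28.5, 42.1 and 35.3. Mll1-KO had 38.0, 30.9 and 15.4 on day 4, which overlapped WT of that day and the Mll1-KO libraries of day 0. Hormad2, an axis protein that monitors pairing, had 23.0, 21.3 and 37.3 in WT, 15.4, 13.7 and 8.43 in Mll1-KO, 26.0, 30.6 and 23.6 in Mll2-KO and 15.8, 6.74 and 5.16 in double-KO on day 0. The double-KO difference from Mll2-KO was -1.57 ± 0.39, adjusted p = 0.0024, while the call of Mll1-KO against WT, -1.06 ± 0.39, adjusted p = 0.036, was lost without WT replicate 1 or 3 or Mll1-KO replicate 2 or 3.

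On day 4, 10 of 35 genes were lower and 1 higher in Mll1-KO than in WT (11 called, where 35.8% of all genes were called in either direction). This count rested on 1 library: without WT replicate 2 of day 4 there were 4 lower and 1 higher. The 4 that were at least 2-fold lower with all libraries, against 2.12% of all genes, were Hormad1, Hormad2, Sycp3 and Dmc1. Of these the calls of Hormad1 and Hormad2 were lost without that library, as was that of Hormad2 without Mll1-KO replicate 2. Hormad2 reached 10 normalized counts in 5 day 4 libraries, with all 3 libraries of 1 group only. It thus passed the filter only through libraries where it was high, and its place among the 4 adds no support. Sycp3 had 43.7, 40.1 and 51.8 in WT and 22.5, 22.1 and 11.2 in Mll1-KO (-1.29 ± 0.31, adjusted p = 0.0021). Hormad1, which marks unpaired axes, had 19.3, 52.1 and 23.6 in WT, with replicate 2 above the others, and 7.03, 15.4 and 11.2 in Mll1-KO. The summed pluripotency markers given above were lower in Mll1-KO than in WT on this day as well, and their part in these differences was not tested. The 1 gene called higher was Rec8, the meiotic kleisin that links cohesin rings, with 2092, 1885 and 2028 in WT and 2637, 2584 and 2666 in Mll1-KO (0.39 ± 0.05, adjusted p = 5.4e-07). Rec8 was also higher in double-KO, at 2982, 2697 and 3083, than in Mll2-KO, at 1916, 1859.9 and 1917 (0.62 ± 0.05, adjusted p = 2.2e-10). Stag3, the meiotic cohesin subunit that joins Rec8, rose in double-KO to 449.9, 495 and 428 from 226, 224 and 229.7 in WT (1.01 ± 0.09, adjusted p = 5.6e-10), whereas on day 0 it had fallen from 479, 495 and 537 to 375, 353 and 359 (-0.47 ± 0.09, adjusted p = 0.00011).

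Without both enzymes, most of the genes fell in undifferentiated cells. In double-KO against WT on day 0, 27 of 37 genes were lower, 21 at least 2-fold lower, with a median of -1.37 (27.1% of all genes were called lower and 9.83% called and at least 2-fold lower). On day 4, 20 of 35 were lower and 7 higher, with 15 at least 2-fold lower (23.3% of all genes were lower, 27.6% higher and 8.77% at least 2-fold lower). Against Mll2-KO, which compares cells without and with MLL1 where both lack Mll2, 22 were lower and 3 higher on day 0 (24.3% and 23.4% of all genes), but 9 lower and 11 higher on day 4 (20.9% and 19.4%). Whether the effects of the 2 losses add up on the log2 scale was tested as the Mll2 effect in Mll1-KO cells minus that in WT cells. On day 0 it was below 0 for 5 of 37 genes, with 4.71% of all genes called below 0 and 9.13% called in either direction: Tex11 (-1.05 ± 0.21, adjusted p = 0.0026), Mael (-0.98 ± 0.17, adjusted p = 0.001), Sohlh2 (-0.87 ± 0.22, adjusted p = 0.017, not called with quantile scaling), Taf7l and Tex14. The call of Taf7l was lost without WT replicate 2, Mll1-KO replicate 2, Mll2-KO replicate 1 or 2 or double-KO replicate 2, and that of Tex14 without Mll1-KO replicate 3 or double-KO replicate 1. In these 5 the double-KO was lower than the single mutants add up to. On day 4 it was above 0 for 9 of 35 genes, with 7.59% of all genes called above 0 and 13.6% called in either direction. These were Tdrd1, Piwil2, Syce1, Taf7l, Tdrkh, Ddx4, Tdrd7, Stag3 and Rec8, led by Tdrd1 (0.87 ± 0.20, adjusted p = 0.0055, not called with all 24 libraries in the fit) and Piwil2 (0.85 ± 0.17, adjusted p = 0.0021). The call of Rec8 was lost when any 1 of 7 of the 12 libraries was left out.

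The effect of the double-KO differed between days for 20 of 39 genes (39.4% of all genes). Relative to WT, 16 of the 20 were higher on day 4 than on day 0 (20.3% of all genes) and 4 were lower. The 16 include Tex101, which did not pass the filter on day 0 and passed that of day 4 only through libraries where it was high. The 4 were Dmc1, Sycp2, Tex15 and Mlh3. Summed over all 44 genes, normalized counts were 12525 ± 170.4 in WT, 10177 ± 170.0 in Mll1-KO, 9192 ± 347 in Mll2-KO and 6813 ± 107 in double-KO on day 0. The day 4 sums were 7789 ± 184, 7632 ± 216, 5375 ± 16.7 and 6892 ± 96.1, so the double-KO was lowest on day 0 and lay between Mll1-KO and Mll2-KO on day 4. Rec8 alone gave 2001 ± 106 of the WT sum and 2920.4 ± 200.3 of the double-KO sum on day 4.

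Over the 4 days of retinoic acid most of the genes fell in WT. From day 0 to day 4, 25 of 39 were lower and 5 higher, 19 at least 2-fold lower, with a median of -1.15, where 39.9% of all genes were called lower, 43.0% higher and 18.8% called and at least 2-fold lower. The 39 include Syce3, Nanos3, Mei1 and Msh4, which passed the filter on day 0 only, and Tex101 and Tdrd9, which passed on day 4 only. Changes of these genes between days are not independent of the filter and add no support to the counts. The largest falls were Sycp3, from 927, 866 and 872 to 43.7, 40.1 and 51.8 (-4.27 ± 0.23, adjusted p = 6.7e-16), Hormad1, from 338, 325 and 321 to 19.3, 52.1 and 23.6 (-3.46 ± 0.26, adjusted p = 8.2e-13), Piwil4 (-3.16) and Piwil2, from 1174, 1083 and 1079 to 139, 129 and 121 (-3.09 ± 0.10, adjusted p = 5.4e-21). The rises were Tdrd7, a Tudor protein of germ granules and of the lens, from 27.6, 34.2 and 37.3 to 261, 266 and 267 (2.98 ± 0.15, adjusted p = 3.4e-16), Rec8, from 253, 286 and 288 to 2092, 1885 and 2028 (2.86 ± 0.09, adjusted p = 7.7e-21), Prdm9 (2.21), Taf7l (1.86) and Brdt (0.63). The rise of Brdt was lost when any library other than day 0 WT replicate 2 was left out. Of the 14 genes lower in all comparisons of Mll2 loss, the WT change over the 4 days was not called for 5: Sycp2, Tex11, Meioc, Tdrd5 and Slc25a31.

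**Figure D4:**
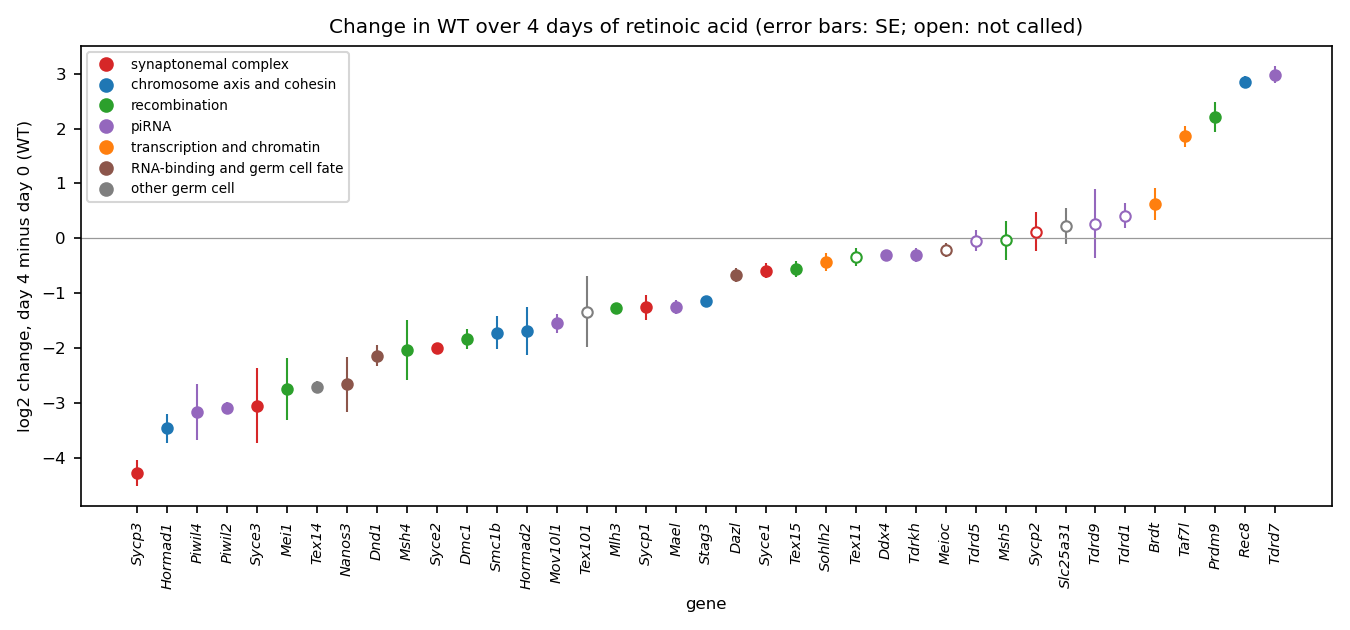
Log2 change from day 0 to day 4 of retinoic acid in WT (vertical) for the 39 genes that passed the filter across days, ordered by change and coloured by role. Points are estimates, bars their standard errors, and open points were not called. Sycp3 is lowest at -4.27 and Tdrd7 highest at 2.98.

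Other genes of the same processes moved in both directions without Mll2. A list of 49 further meiosis and piRNA genes, drawn up from general knowledge and sharing no gene with the 44, had 42 in the table. In Mll2-KO against WT on day 0, 6 of 33 tested were lower and 3 higher (24.3% and 22.8% of all genes), with a median change of -0.06, and the double-KO against Mll1-KO had 9 lower and 5 higher (22.0% and 18.9%). On day 4 Mll2-KO against WT had 7 lower and 9 higher of 26 tested (20.3% and 25.4% of all genes), with a median of 0.09. Ddx25, a helicase of late spermatogenic cells, was lower in all 4 comparisons, by -1.44 and -1.31 on day 0 and by -1.29 and -2.47 on day 4. Mnd1, which helps strand exchange, was lower on day 4 in Mll2-KO against WT (-1.32), and Gpat2, a mitochondrial acyltransferase of piRNA biogenesis, was higher (1.40). In the WT time course 29 of 34 of these genes were lower (39.9% of all genes) and only Stra8, the retinoic acid-induced meiotic gatekeeper, was called higher, from 327 to 1805 on average. The promoters of the 14 genes lower in all comparisons of Mll2 loss could be read for 11, with a median CpG ratio of 0.796 and CACGTG in 5 of 11 windows (45.5%). The other 18 genes tested in all 4 comparisons that had a RefSeq promoter held 27 windows, with a median CpG ratio of 0.716 and CACGTG in 9 (33.3%).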

How the data were processed

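PolyA RNA libraries (TruSeq stranded mRNA) of mouse embryonic stem cells were available as 1 table of normalized counts. The deposited values are of the unit signal, that is, reads of a gene scaled by a single factor for each library. Undoing this scaling returned whole reads for 100% of values (tolerance 1e-06), which were used in the count models. Build mm10 is named per the submitters' processing notes, as are STAR 2.7.10a, RSEM 1.3.1, DESeq2 1.34.0, SAMtools 1.13, Trim Galore 3.4 and FastQC, none with a stated role. The gene annotation is not given in the sources used here. An unexplained letter in the column names of day 0 WT leaves them the only WT columns of that day, and they were used as such.

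Log2 (normalized count + 1) values were tested by limma 3.58.1 (R 4.3.3, trend option) after a filter of 10 or more in 3 or more libraries. A fit held the 12 libraries of a day, or all 24 across days, and p-values were adjusted by Benjamini-Hochberg over every gene tested (13984 on day 0, 14303 on day 4, 15114 across days). Each of the 44 genes is named. Per-library values are given where a gene was called at 2-fold or more between 2 groups and averaged 20 or more in the higher one, with a few others for contrast, and other lists contribute at most 3 rises and 3 falls a comparison. The genes, their roles and all lists were chosen with earlier results of these data known. As alternatives, the pseudocount was 0.5 or 5, the filter was removed or raised to 50, scaling was by quantiles or column totals, replicate number was a block, all 24 libraries entered each fit, edgeR 4.0.16 (quasi-likelihood, TMM) or DESeq2 1.42.0 replaced limma, and single libraries were left out. Leaving day 0 WT out of the fit was chosen after seeing the data. Gene positions are from GENCODE M21 (mm10) and promoters from RefSeq (GRCm38.p6). The scripts were tested on simulated data.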

Additional observations from a re-analysis of the deposited data

Results flagged for a closer look

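Effects that differed between days, or that did not add up between the 2 losses, by at least 2-fold on a called test, for genes with a mean of 20 or more in some group, are listed here with their log2 difference ± SE and limma's adjusted p. The effect of the double-KO against WT moved most between days for Tdrkh, by 3.47 ± 0.18 (day 4 minus day 0, adjusted p = 2.7e-14), and Tdrd1, by 2.69 ± 0.32 (adjusted p = 1.3e-07). It also moved upward for Taf7l (1.6), Hormad2 (1.58), Stag3 (1.48), Smc1b (1.39), Piwil2 (1.33), Sohlh2 (1.03), Mael (1.03) and Dazl (1.01), and downward for Dmc1 (-1.72), Sycp2 (-1.54) and Tex15 (-1.1). The call of Hormad2 was lost under 11 alternatives, and that of Sycp2 without day 0 double-KO replicate 2.

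The effect of Mll2-KO against WT was higher on day 4 for Nanos3 (2.87 ± 0.71, adjusted p = 0.0023), Tdrkh (1.71) and Tdrd1 (1.12). Nanos3 did not pass the filter on day 4, where all its libraries lay between 1.02 and 7.84 normalized counts, so a fall like that of day 0 could not have shown there. It was lower on day 4 for Slc25a31 (-1.99 ± 0.47, adjusted p = 0.0016), Prdm9 (-1.42), Sycp2 (-1.37), Tex14 (-1.3) and Tex11 (-1.07), and the call of Sycp2 was lost under 9 alternatives. The effect of Mll1-KO against WT was higher on day 4 for Smc1b (1.83 ± 0.43, adjusted p = 0.0014) and lower for Hormad1 (-1.42), Dmc1 (-1.14) and Sycp3 (-1.11). On day 0 the Mll2 effect was deeper in Mll1-KO cells than in WT cells for Taf7l (-1.24 ± 0.33, adjusted p = 0.022) and Tex11 (-1.05 ± 0.21, adjusted p = 0.0026).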

How the results depend on the processing

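Of the 17 counts of called genes, each stayed within 1.5 times its value under every alternative that could be fitted, except the 11 genes called between Mll1-KO and WT on day 4: leaving out single libraries gave 5 to 11, and the 5 came without WT replicate 2. The number of genes lower in all 4 comparisons of Mll2 loss was 12 to 14 under the alternatives, with Syce1, Mov10l1, Sycp2 or Slc25a31 lost. No called gene changed direction. Of 330 calls of single genes, limma with a replicate block kept all but 5, edgeR all but 13, DESeq2 all but 17, scaling to column totals all but 18, no filter all but 23 and quantile scaling all but 32. With all 24 libraries in the fit 26 of 247 calls within a day were lost, and leaving out single libraries lost 202 of 2376. Replicate numbers carried no strong pairing: over 36 pairs of same-numbered libraries the deviations correlated with a median r of 0.00568 (-0.04465 to 0.07677). However, 14 of 24 libraries were closest to their own number, more than an even spread over the replicate numbers would give. These values do not settle whether a weak pairing exists, and the block was used as an alternative only. Genes with fewer than about 20 normalized counts, such as Hormad2, Nanos3 or Sycp2 without Mll2, rest on few reads.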

Other observations

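Genes known to repress germline genes in stem cells were listed as 26 factors of DNA methylation, the Polycomb complex with MGA and E2F6, and histone methylation, and all 26 were tested. In Mll2-KO against WT on day 0, 11 were called lower and 3 higher (24.3% and 22.8% of all genes), with a median log2 change of -0.09, and 0 reached 2-fold. In Mll1-KO against WT on day 0, 16 were higher (21.3% of all genes), with a median of 0.18. On day 4, Mll2-KO against WT had 9 higher and 5 lower (25.4% and 20.3%), with a median of 0.02. Comparisons of the double-KO were not counted for this list. Dnmt3a averaged 5504 in WT, 5150 in Mll1-KO, 3288 in Mll2-KO and 2595 in double-KO on day 0. Its day 4 means were 2909, 3160, 1749 and 1549 in that order. Dnmt3b and Dnmt3l were instead higher in double-KO than in Mll1-KO on day 4, at 807 against 573 and 361 against 144. The part of the 26 factors in the levels of the meiosis and piRNA genes was not tested. The list of 10 primordial germ cell markers holds Dazl, Ddx4, Dnd1 and Nanos3 of the 44 genes. Beside these, Dppa3 and Kit were called lower and Prdm14 higher in Mll2-KO against WT on day 0, and Tfap2c, Kit and Ifitm3 were called higher on day 4.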
